A study of Mus musculus with 2 samples.

Results

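Cyclic nucleotide phosphodiesterases are the enzymes that break down cAMP and cGMP, and 10 of their genes were followed through single nuclei of mouse CIC::DUX4 sarcoma, out of 19059 features measured. The genes are Pde1a, Pde1c, Pde3a, Pde3b, Pde4b, Pde4d, Pde5a, Pde7b, Pde8b and Pde10a, found by symbol in the feature list. They were chosen by their measured levels in the cell classes of these same tumors, with earlier results known, so class levels are given below as a description with no test. Another 10 genes of the family were measured and serve for comparison.

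The tumors came from the dFLEx CDS mouse. In this model Cre and FLP recombinases, delivered as plasmids into a calf muscle by electroporation, invert the exons of a CAG-driven CIC::DUX4 cassette so that the fusion is made. The untreated group held 4 tumors with the genotype dFLEx CDS +/-. The Minnelide group held 4 tumors of dFLEx CDS mice given Minnelide, a water-soluble prodrug of triptolide, at 0.42 mg/kg for 21 days. Ages of the animals at collection are not in the labels, and the fusion is carried by both groups. Triptolide binds the XPB subunit of a general transcription factor, and the comparison asks how nuclei of treated tumors differ from those of untreated ones.

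Cells make cAMP and cGMP with adenylyl and guanylyl cyclases, and phosphodiesterases end the signal. The families differ in substrate and control. PDE1 enzymes are switched on by calcium and calmodulin, PDE3 enzymes are cAMP hydrolases slowed by cGMP, and PDE4, PDE7 and PDE8 enzymes are specific for cAMP. PDE5 is specific for cGMP and is the target of sildenafil, and PDE10 cleaves both nucleotides and is best known from the medium spiny neurons of the striatum. In vascular smooth muscle cGMP formed by nitric oxide–stimulated guanylyl cyclase relaxes the vessel wall through protein kinase G. PDE1 and PDE5 limit that response.

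Nuclei were called and counted by the authors, and 59907 of them were retained here in 24 clusters. Clusters were given 7 names from marker genes: tumor-like (37611 nuclei), myocyte-like (8542), fibroblast-like (7121), endothelial-like (3193), macrophage-like (1778), smooth muscle-like (918) and osteoclast-like (744). The smooth muscle-like cluster also had pericyte markers raised. Their list took 0.397% of its UMIs on average and the smooth muscle list 0.236%, so the name does not separate smooth muscle from pericytes. Levels are CPM (UMIs of a gene scaled to the same large total in every profile), summed over all nuclei of a class in a tumor, the tumor being the replicate, and a class with under 20 nuclei in a tumor was left out there. For that reason smooth muscle-like values lack Minnelide tumor 4, which had 14 such nuclei. Total counts were between 18487409 and 73211599 UMIs per tumor, and untreated tumor 4 was shallow at a median of 883 UMIs per deposited nucleus, against 2329 to 4031 in the others. Tumors whose barcodes share a fixed pair of bases, 1 of each group, had 49 to 132 barcodes in common. The labels name no run, so run and treatment cannot be told apart.

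Untreated tumor 1 stood apart from the other 7 tumors. A cluster of 2355 nuclei, 2348 of them from that tumor, had raised markers of 8 classes at a median of 1000 UMIs and was named myocyte-like. Its tumor-like nuclei had 0.341% of their UMIs in the endothelial marker list, against 0.0433% to 0.0850% in the other tumors. Results that rest on it are given with and without it.

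Pde10a, the gene of a dual cAMP and cGMP hydrolase, had its highest level in tumor-like nuclei in 8 of 8 tumors. The gene lies at chr17:8744204-9205482 of GRCm39 on the plus strand. In untreated tumors 1 to 4 the tumor-like level was 3803, 14169, 13197 and 13665 CPM. In Minnelide tumors 1 to 4 it was 14665, 14786, 13361 and 12628 CPM. The summed levels of tumors other than untreated tumor 1 thus lay in a narrow band, with a mean of 13782 ± 796 CPM (SD, n = 7). Untreated tumor 1 lay far below it. The value of untreated tumor 4 sums unlike clusters. A shallow cluster, at a median of 757 UMIs, held 6194 nuclei of that tumor and had Pde10a at 7965 CPM. Markers of myocytes, fibroblasts, endothelium and pericytes were also raised there. Another cluster held 2085 of the tumor's nuclei and had Pde10a at 18840 CPM. With all tumors the tumor-like mean was 12534 CPM, which was 2.21 times that of the next class, macrophage-like nuclei with 5664 CPM. Nearly every tumor-like nucleus, 99.4%, held at least 1 Pde10a UMI, and 98.6% did after thinning to 1000 UMIs. In macrophage-like nuclei, which are not known for this gene, the shares were 88.2% and 76.5%, at median depths of 2661 UMIs for tumor-like and 2504 UMIs for macrophage-like nuclei. Per kilobase of gene Pde10a was also the highest of the 20 measured family genes in tumor-like nuclei. Its mean there was 27.2 ± 7.81 CPM per kb (SD, n = 8), followed by Pde4b at 7.69 ± 0.973. Pde10a ranked first per kilobase in every other class too, with means from 8.78 in fibroblast-like to 12.3 in macrophage-like nuclei.

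Pde4b, a cAMP-specific enzyme gene at chr4:101944740-102465716, had a similar tumor-like level in all 8 tumors, untreated tumor 1 included. Its tumor-like level was 3497, 3864, 3826 and 3653 CPM in untreated tumors 1 to 4. It was 4936, 3620.0, 4592 and 4067 CPM in Minnelide tumors 1 to 4. All 8 tumors lay above the highest value of any other class, 3123 CPM in a macrophage-like profile. The mean of 4007 CPM was 1.94 times the endothelial-like mean of 2064 CPM, just short of the 2-fold step that was asked of a gene said to mark a class.

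Pde1c, the calmodulin-dependent enzyme gene at chr6:56046784-56629472 on the minus strand, was highest in tumor-like nuclei in 8 of 8 tumors. The lowest tumor-like value was 622 CPM, in Minnelide tumor 1, and the highest 1350.3 CPM, in untreated tumor 3. The mean was 935 CPM against 412 CPM in macrophage-like nuclei, a ratio of 2.27. The ranges of the classes overlapped, since macrophage-like nuclei reached 804 CPM in Minnelide tumor 3. Without untreated tumor 1 the tumor-like mean was 900.5 CPM and the macrophage-like mean 456 CPM, and Pde1c no longer passed the 2-fold step.

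**Figure D1:**
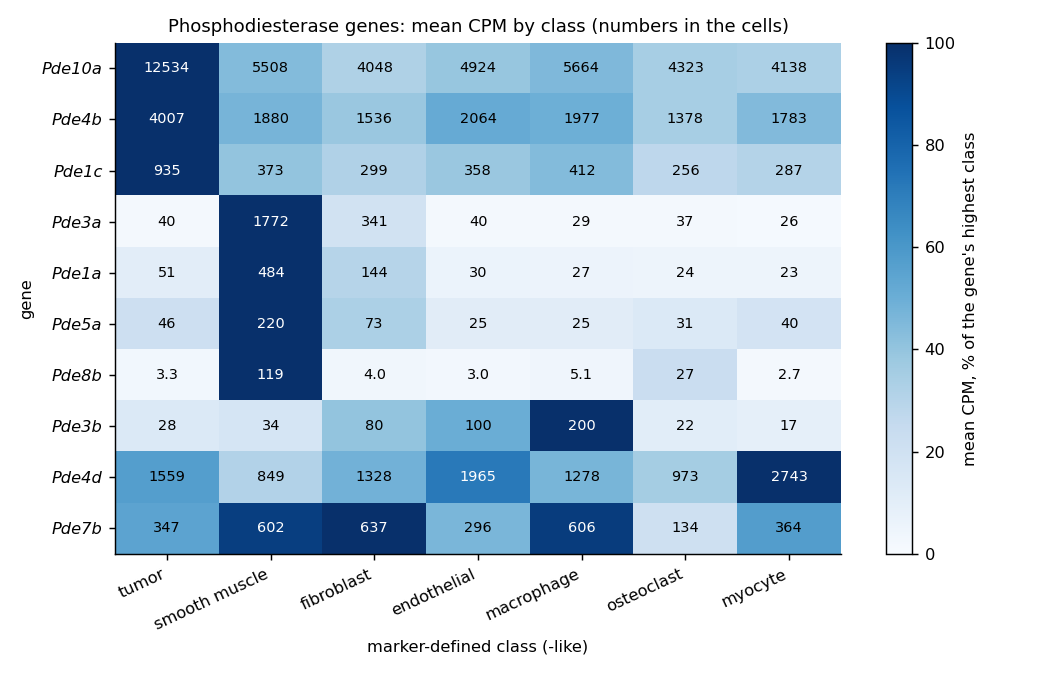
Mean CPM over tumors (n = 8, and n = 7 for smooth muscle) of the 10 phosphodiesterase genes (rows) in 7 marker-defined classes (columns); numbers in the cells are CPM and the color gives the percent of the gene's own highest class. Pde10a, Pde4b and Pde1c are darkest in the tumor column, Pde3a, Pde1a, Pde5a and Pde8b in the smooth muscle column, Pde3b in the macrophage column, Pde4d in the myocyte column, and Pde7b is similarly dark in 3 columns.

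The same 3 genes were present in every other class, and there they followed the tumor marker list. That list holds 12 genes, among them the CIC::DUX4 targets Etv1, Etv4 and Etv5. Whether its level in another class was tumor RNA or that class's own expression was not tested. Over 47 pairs of a tumor and another class, the level of the list relative to tumor-like nuclei of the same tumor had a median of 0.433, with a range of 0.147 to 0.762. The median ratio was 0.360 for Pde10a, 0.472 for Pde4b and 0.357 for Pde1c. The lowest ratios were mostly in untreated tumor 1, where Pde10a was between 355 and 779 CPM in the 6 other classes. In these classes none of the 12 markers was at 0 in any tumor. How much of the Pde10a, Pde4b and Pde1c counts of the other classes came from tumor nuclei or free RNA was not tested.

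**Figure D2:**
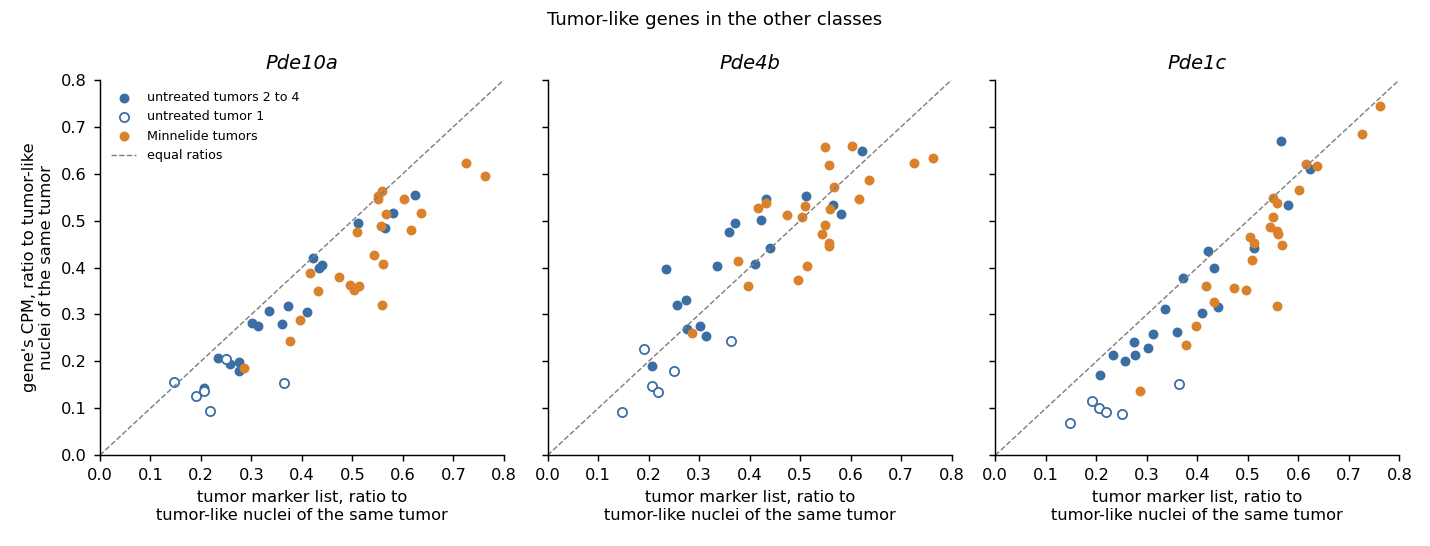
Each point is 1 of 47 pairs of a tumor and a class other than tumor-like; the x axis is the summed share of 12 tumor markers and the y axis the CPM of the named gene, each divided by its value in tumor-like nuclei of the same tumor (no unit), and the dashed line marks equal ratios. Points rise along the line, for Pde10a and Pde1c mostly below it, and untreated tumor 1 (open) sits at the lower left.

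Pde3a set the smooth muscle-like class apart most clearly. PDE3A is the cGMP-inhibited cAMP hydrolase of vascular smooth muscle, platelets and heart, and its gene lies at chr6:141194888-141453174. The smooth muscle-like level was 1522, 1375, 2419 and 1647 CPM in untreated tumors 1 to 4 and 1470.4, 2035 and 1939 CPM in Minnelide tumors 1 to 3. Every one of these lay above the highest fibroblast-like value of 415 CPM. Fibroblast-like nuclei, with a mean of 341 CPM, in turn lay above all values of the remaining classes, whose means were 25.9 to 40.1 CPM. At 1000 UMIs per nucleus, 66.2% of smooth muscle-like nuclei held a Pde3a UMI, against 23.2% of fibroblast-like and 2.88% of tumor-like nuclei. Before thinning the shares were 85.8%, 47.6% and 9.62%, at median depths of 3117, 3228 and 2661 UMIs. Thinning left out shallower nuclei and kept 883 of 918 smooth muscle-like, 6858 of 7121 fibroblast-like and 30919 of 37611 tumor-like nuclei, most of those lost being from untreated tumor 4. The share in macrophage-like nuclei, which are not known for this gene, was 2.32% at 1000 UMIs, close to that of the tumor-like class.

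Pde1a and Pde5a were highest in the same cluster. Pde1a, a calmodulin-dependent enzyme gene at chr2:79664364-79959802 on the minus strand, had 386, 439, 477 and 514 CPM in smooth muscle-like nuclei of untreated tumors 1 to 4. It had 548, 656 and 366 CPM in Minnelide tumors 1 to 3. The lowest of these lay just above the highest fibroblast-like value, 348 CPM in untreated tumor 1, whereas the other fibroblast-like values were 63.0 to 155 CPM. Pde5a, the cGMP-specific enzyme gene at chr3:122522594-122653023, had 142 to 275 CPM in smooth muscle-like nuclei, with the lowest value in Minnelide tumor 3. The next class, fibroblast-like nuclei, stopped at 124 CPM, but the tumor-like nuclei of Minnelide tumor 4 had 145 CPM. The means of the first and second class stood in ratios of 3.36 for Pde1a and 3.02 for Pde5a.

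Pde8b, a gene of a high-affinity cAMP-specific enzyme at chr13:95160559-95386844 on the minus strand, was the least even of these genes. In smooth muscle-like nuclei it had 62.2, 98.8, 136 and 121 CPM in untreated tumors 1 to 4. It had 37.2, 372 and 5.78 CPM in Minnelide tumors 1 to 3. The value of Minnelide tumor 2 rests on 92 UMIs and that of Minnelide tumor 3 on 4 UMIs. Osteoclast-like nuclei came next with a mean of 27.4 CPM and values up to 47.0 CPM, while all other classes averaged 2.72 to 5.09 CPM. The smooth muscle-like class was the highest in 6 of 7 tumors.

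**Figure D3:**
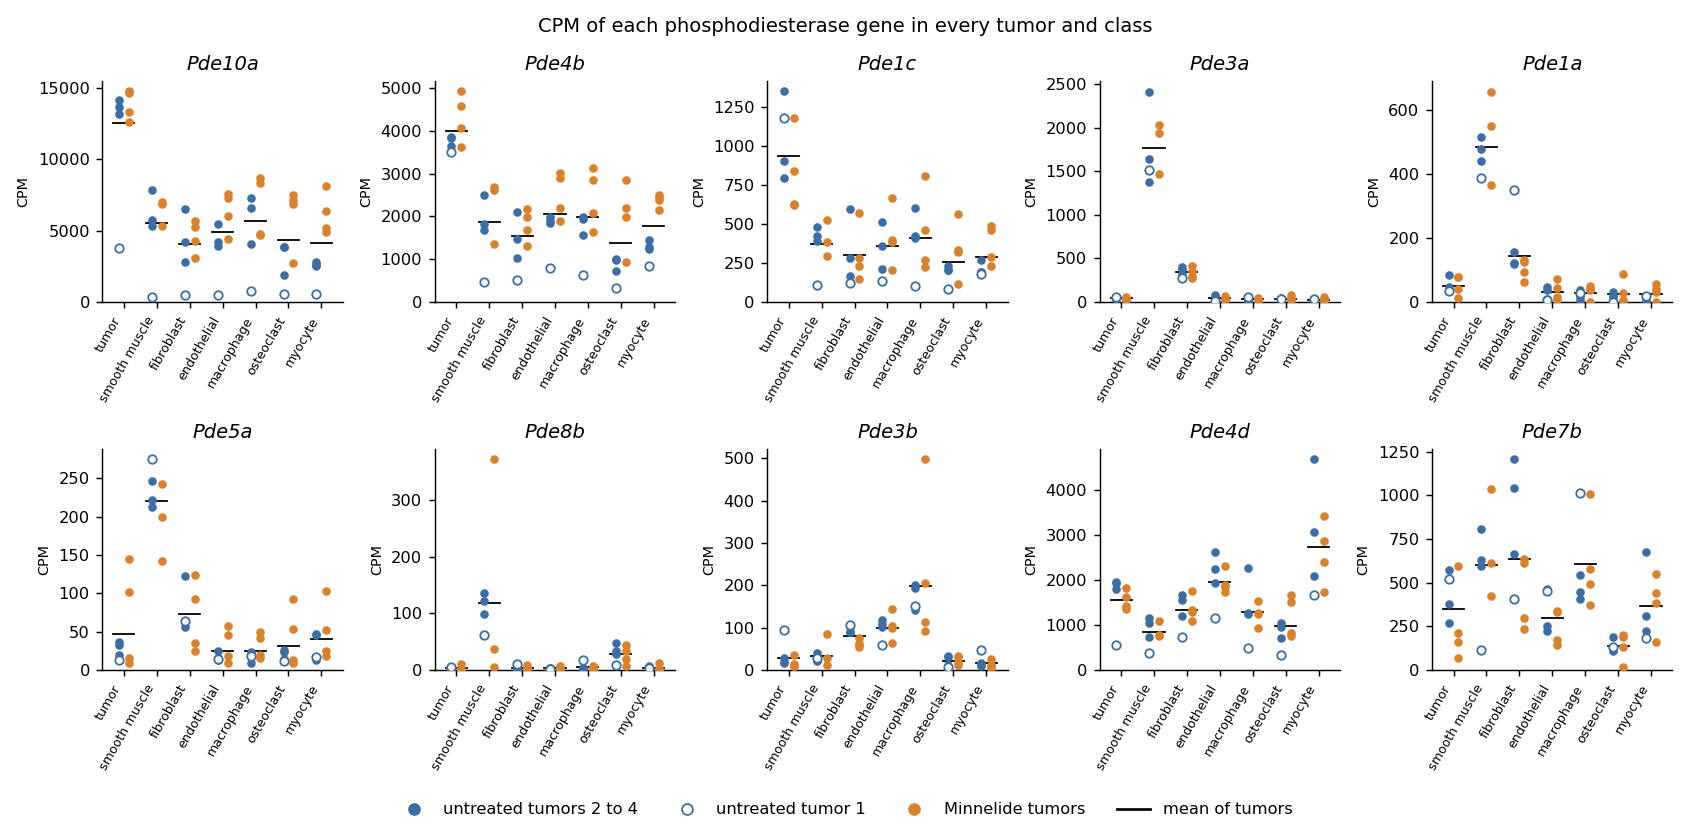
CPM (y axis, linear, from 0) of the 10 phosphodiesterase genes in every tumor by marker-defined class (x axis); filled points are untreated tumors 2 to 4 (blue) and Minnelide tumors (orange), the open point is untreated tumor 1, and the bar is the mean of the tumors. Pde3a and Pde1a in smooth muscle nuclei lie above all points of the other classes, Pde10a in tumor nuclei does so in all tumors but untreated tumor 1, and Pde8b in smooth muscle nuclei spans 5.78 to 372 CPM.

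Pde3b, the gene of the PDE3 enzyme of adipocytes and hepatocytes, lies at chr7:114013685-114138486 and was highest in macrophage-like nuclei in 7 of 8 tumors. The macrophage-like level was 151, 142, 201 and 193 CPM in untreated tumors 1 to 4 and 113, 498, 92.1 and 205 CPM in Minnelide tumors 1 to 4. Endothelial-like nuclei, at 59.1 to 144 CPM, overlapped this range. The means of 199.6 and 99.8 CPM stood in a ratio of 2.00, just inside the 2-fold step, and Pde3b fell short of it without untreated tumor 1 or without Minnelide tumor 2. At 1000 UMIs a Pde3b UMI was seen in 13.6% of macrophage-like, 8.30% of endothelial-like and 2.01% of tumor-like nuclei. Before thinning these shares were 26.9%, 21.1% and 7.61%, at median depths of 2504, 3094 and 2661 UMIs.

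Pde4d and Pde7b marked no class. Pde4d, a cAMP-specific enzyme gene that spans 1506 kb at chr13:108586482-110092497, was highest in myocyte-like nuclei in 7 of 8 tumors, with 1675 to 4698 CPM. Its mean of 2743 CPM was only 1.40 times the endothelial-like mean of 1965 CPM, and the lowest class, smooth muscle-like, still had 849 CPM. Pde7b, a cAMP-specific enzyme gene at chr10:20273567-20600886 on the minus strand, had means of 637, 606 and 602 CPM in fibroblast-like, macrophage-like and smooth muscle-like nuclei. These 3 classes did not separate beyond the spread of the tumors, and fibroblast-like nuclei were highest in 3 of 8 tumors. Leaving out untreated tumor 1, 2 or 3 put another class first.

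By the rule used, a mean of at least 20 CPM, at least 2 times the next class, and that class highest in all but 1 tumor, 7 of the 10 genes marked a class. Of all 9358 genes at that level 17.7% did so, a background from which nothing is read here because the 10 genes were chosen on these levels. Of the other family genes, 6 of 10 reached 20 CPM in some class and only Pde4a marked one, with 96.9 ± 30.6 CPM (SD, n = 7) in smooth muscle-like nuclei. Pde2a, a cGMP-stimulated enzyme gene known from endothelium, was highest in endothelial-like nuclei at 116 ± 53.2 CPM (SD, n = 8). Untreated tumor 1, whose tumor-like nuclei carried endothelial markers, had Pde2a in these nuclei at 268 CPM, against 10.4 to 49.5 CPM in the other 7 tumors. Pde8a had 336 ± 65.1 CPM in endothelial-like and 294 ± 107 CPM in osteoclast-like nuclei, and Pde7a had 519 ± 163 CPM in myocyte-like nuclei (SD, n = 8 each). Pde1b reached 20.4 ± 6.48 CPM (SD, n = 8) in macrophage-like nuclei and Pde9a a mean of 39.6 CPM in smooth muscle-like nuclei. Pde4c, Pde6b, Pde6c and Pde11a stayed below 20 CPM on average in every class.

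Among tumor-like nuclei the less abundant genes differed widely between tumors. Pde5a had 12.9, 36.8, 32.8 and 19.0 CPM in untreated tumors 1 to 4 and 15.8, 101, 8.87 and 145 CPM in Minnelide tumors 1 to 4. Minnelide tumors 2 and 4 were thus high, while Minnelide tumors 1 and 3 lay within or below the untreated range. Pde7b ran from 68.2 CPM in Minnelide tumor 4 to 596 CPM in Minnelide tumor 1. Pde1a ran from 12.8 CPM in Minnelide tumor 4 to 83.1 CPM in untreated tumor 3. In untreated tumor 1 Pde3b stood at 93.9 CPM, against 16.9 to 29.0 CPM in the other untreated tumors, and Pde4d at 563 CPM, against 1805 to 1944 CPM. Except for a cluster shared by untreated tumors 2 and 3 and a small one shared by untreated tumors 1 and 2, each tumor-like cluster held mainly nuclei of 1 tumor, so these differences are also differences between clusters.

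The genes whose levels ran most alike were sought over 55 profiles of a tumor and a class, by Pearson's r of log2(CPM + 10) against 11157 genes outside the family. The profiles of a tumor share a library, and r is given as a description. For Pde10a the closest were Shc3 (r = 0.98), Shc4 (r = 0.97) and Igf2bp3 (r = 0.97), all of them in the tumor marker list. For Pde4b they were Hmga2, Etv5 and Etv1 (r = 0.95 each), and for Pde1c they were Etv5 (r = 0.91), Spsb4 (r = 0.90) and Hmga2 (r = 0.89). Pde3a ran with Lhfp and Rasl12 (r = 0.95 each), Pde1a with Sox5 (r = 0.91), Naalad2 and Trabd2b (r = 0.90 each), and Pde5a with Ano1 (r = 0.90), Ror1 (r = 0.87) and Rerg (r = 0.82). All of these had smooth muscle-like nuclei as their highest class. Pde8b was closest to Il34 (r = 0.84), Ryr2 (r = 0.81) and Pip5k1b (r = 0.80), and Pde3b to Dab2 (r = 0.88), Plaur and Rgl1 (r = 0.84 each). Pde4d was closest to Reep1 (r = 0.83), Limch1 (r = 0.79) and Rfx7 (r = 0.74). Pde7b had the lowest likenesses, to Elmsan1 (r = 0.71), Slc8a1 (r = 0.68) and Tsc22d1 (r = 0.64). Between the genes themselves r was highest for Pde4b with Pde10a, at 0.91, and for Pde1a with Pde3a, at 0.88, and lowest for Pde4d with Pde8b, at -0.52.

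Genes that make, bind and anchor cyclic nucleotides were described by the same level rule. Their lists were chosen with earlier results of these data known, so nothing is read from the counts. In smooth muscle-like nuclei 4 of the 12 cyclase genes at 20 CPM or more were set apart. This class was marked by 142 of all 9358 genes at that level. Gucy1a1 and Gucy1b1, the subunits of nitric oxide–stimulated guanylyl cyclase, had 207 ± 61.2 and 147 ± 43.8 CPM there (SD, n = 7), and no other class averaged above 6.43 CPM for either gene. Gucy1a2, another subunit, had 558 ± 95.2 CPM and Adcy5, an adenylyl cyclase, 71.4 ± 68.2 CPM (SD, n = 7 each). Of 12 effector genes, 3 were set apart in the same class. Prkg1, which codes for the cGMP-dependent protein kinase of smooth muscle, had 5356 ± 693 CPM, next to Prkar2b with 178 ± 85.7 and Prkar1b with 34.9 ± 13.5 CPM (SD, n = 7 each). Smooth muscle-like nuclei thus held the highest levels of a cGMP-forming enzyme, its kinase and the PDE genes Pde1a, Pde3a and Pde5a together.

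Other classes had their own genes. Popdc3 and Bves, which code for cAMP-binding Popeye proteins of striated muscle, had 227 ± 103 and 83.3 ± 21.7 CPM in myocyte-like nuclei (SD, n = 8). Pkia, an inhibitor of protein kinase A, had 205 ± 78.1 CPM there, and Pde4dip, the scaffold myomegalin, also marked that class. Pkib, a second such inhibitor, had 49.2 ± 39.1 CPM (SD, n = 8) in macrophage-like nuclei and at most 2.95 CPM on average elsewhere. Adcy4 and Rapgef3 marked endothelial-like and Adcy3 and Akap6 osteoclast-like nuclei. Of 5 transcription factors and coactivators at 20 CPM, 0 marked a class, against 17.7% of all genes at that level. Atf1 and Creb1 had the steepest steps among them, with 125 ± 28.3 CPM of Atf1 in osteoclast-like and 198 ± 8.08 CPM of Creb1 in macrophage-like nuclei (SD, n = 8). No gene of the 4 lists marked tumor-like nuclei. Only 45 of all 9358 genes at 20 CPM did so, and nothing is read from this absence.

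**Figure D4:**
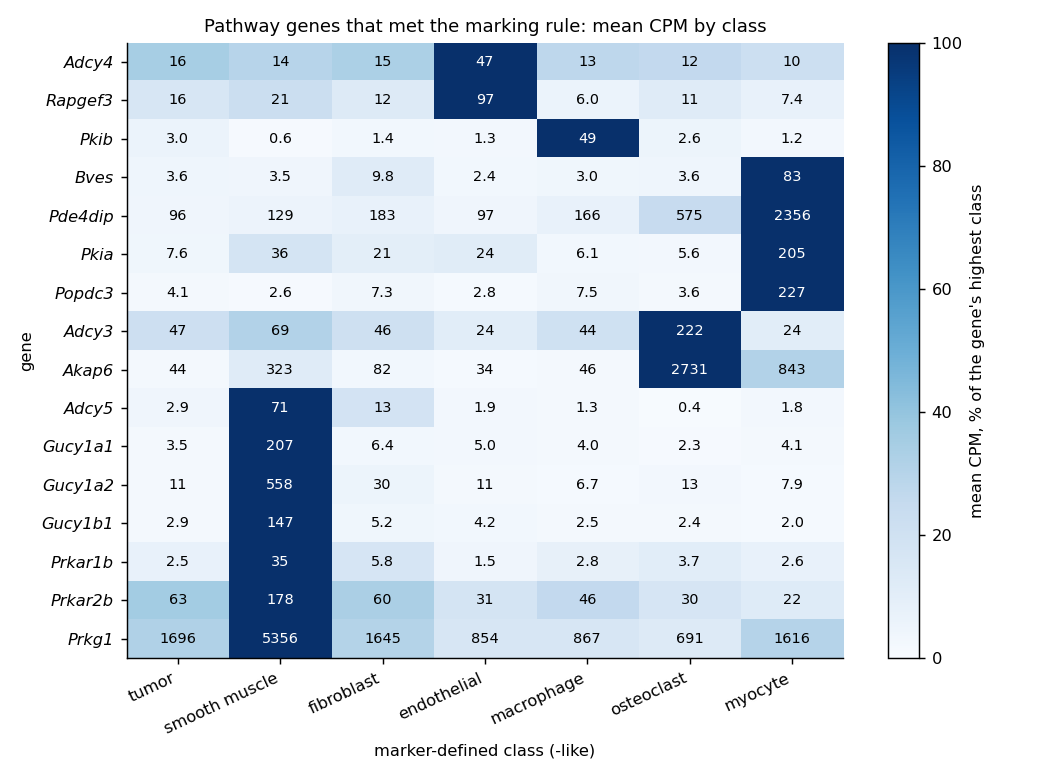
Mean CPM over tumors of the 16 cyclase, effector, anchor and inhibitor genes that met the marking rule (rows) in 7 classes (columns); numbers in the cells are CPM and the color gives the percent of the gene's own highest class. The guanylyl cyclase genes Gucy1a1, Gucy1a2 and Gucy1b1 and the kinase gene Prkg1 are darkest in the smooth muscle column. No row is darkest in the tumor column, a class that only 45 of all 9358 genes at 20 CPM marked.

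Minnelide and untreated tumors were compared within each class by edgeR's quasi-likelihood test on summed counts, over all genes that passed the filter. In tumor-like nuclei 0 of the 10 phosphodiesterase genes passed an adjusted p of 0.05, as did 0 of all 13064 genes tested (0%). Without adjustment 0 of the 10 genes and 9.74% of all genes had a p under 0.05. DESeq2 called 98 genes (0.75%) and again 0 of the 10. The log2 fold change of Pde10a was 0.40 ± 0.48 (SE; edgeR adjusted p = 0.780) and fell to 0.11 ± 0.17 without untreated tumor 1. That of Pde4b was 0.34 ± 0.22 (SE; edgeR adjusted p = 0.609). The widest differences were 1.52 ± 0.86 for Pde5a and -1.11 ± 0.64 for Pde3b (SE; edgeR adjusted p = 0.567 and 0.569). Without untreated tumor 1 these were 1.28 and -0.33. The value of Pde5a was 0.79 without Minnelide tumor 4 and 1.89 without Minnelide tumor 3, and that of Pde3b was -1.75 without Minnelide tumor 2.

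In tumor-like nuclei the remaining genes had log2 fold changes of 0.12 ± 0.55 for Pde1a, -0.25 ± 0.28 for Pde1c, -0.14 ± 0.32 for Pde3a and 0.08 ± 0.41 for Pde4d (SE). Those of Pde7b and Pde8b were -0.62 ± 0.58 and 0.11 ± 0.78 (SE). Without Minnelide tumor 1, which had the highest level, the value of Pde7b was -1.43, and without Minnelide tumor 4, which had the lowest, it was -0.30. All adjusted p values were between 0.567 and 0.967 by edgeR. The groups overlapped for all 10 genes in tumor-like nuclei, where 6.77% of genes at 20 CPM did not overlap. With 4 tumors a group, a p that misses the threshold does not show that the levels were alike.

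**Figure D5:**
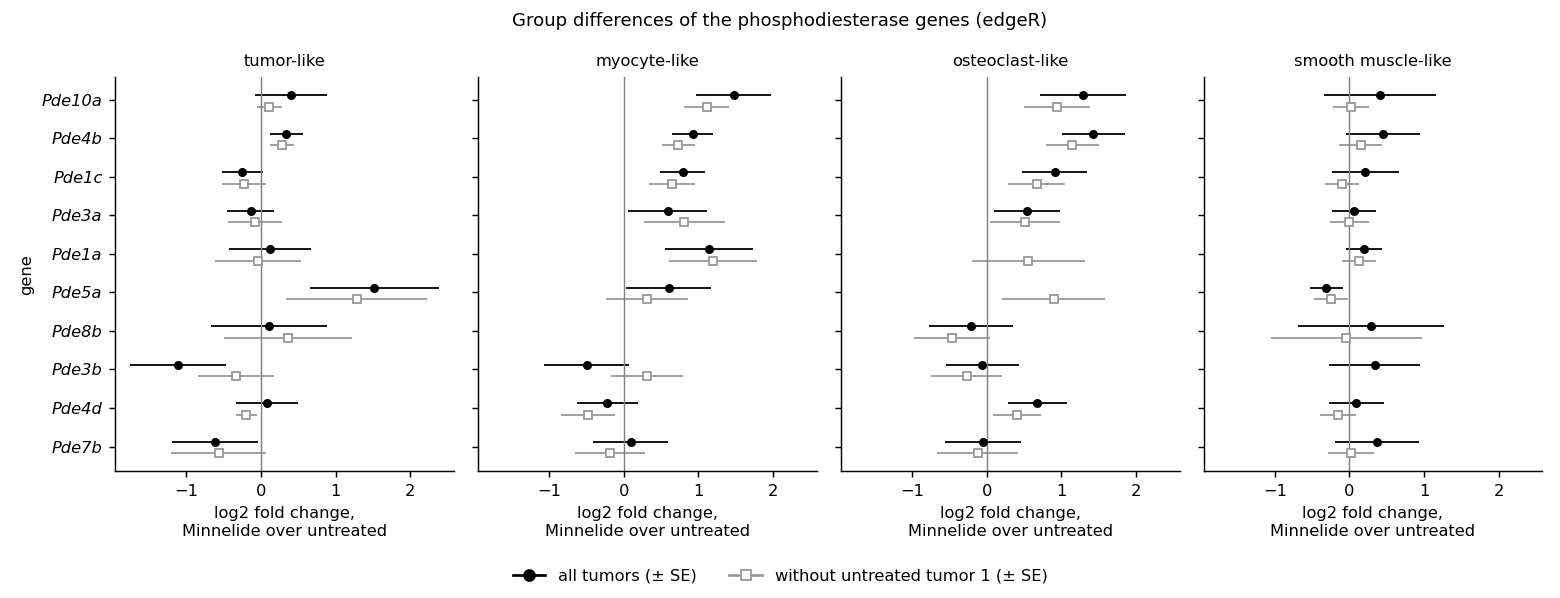
Log2 fold change of Minnelide over untreated tumors (x axis) with its SE for the 10 phosphodiesterase genes (rows) in 4 classes, by edgeR with all tumors (black) and without untreated tumor 1 (gray); genes that did not pass the count filter have no point. Pde10a and Pde4b lie to the right of 0 in all 4 classes and Pde1c in myocyte-like and osteoclast-like nuclei, and 0 genes passed an adjusted p of 0.05.

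No phosphodiesterase gene passed edgeR at an adjusted p of 0.05 in smooth muscle-like, macrophage-like, fibroblast-like or myocyte-like nuclei. In smooth muscle-like nuclei edgeR called 0 of 10 genes and 0 of 7281 in all (0%), as did DESeq2, and 0 of the 10 and 4.83% of all genes had an unadjusted edgeR p under 0.05. Pde3a differed by 0.06 ± 0.29, Pde1a by 0.20 ± 0.24, Pde5a by -0.31 ± 0.22 and Pde8b by 0.29 ± 0.98 on the log2 scale (SE; edgeR adjusted p = 0.985 to 0.997). Without Minnelide tumor 2 the value of Pde8b was -2.24. Pde3b in macrophage-like nuclei differed by 0.44 ± 0.48 (SE; edgeR adjusted p = 0.843; 0 of 8248 genes called, 0%), which became -0.35 without Minnelide tumor 2. Of the 9 phosphodiesterase genes tested in macrophage-like nuclei 0 had an unadjusted p under 0.05, against 6.51% of all genes, and DESeq2 called 1 gene (0.0121%). The groups overlapped for all 10 genes in smooth muscle-like and macrophage-like nuclei, where 5.78% and 3.70% of genes at 20 CPM did not overlap. Pde4d in myocyte-like nuclei differed by -0.22 ± 0.41 and Pde7b in fibroblast-like nuclei by -0.87 ± 0.44 (SE; edgeR adjusted p = 0.896 and 0.933). Pde3b in fibroblast-like nuclei was 89.9 to 106 CPM in untreated and 55.1 to 76.5 CPM in Minnelide tumors. These groups did not overlap, as was so for 3.97% of genes at 20 CPM in that class. The log2 fold change of -0.54 ± 0.14 (SE) did not pass (edgeR adjusted p = 0.931; 0 of 11542 genes called, 0%). Pde3b was the 1 phosphodiesterase gene of 10 with an unadjusted edgeR p under 0.05 there, against 5.13% of all genes, while 12 genes were called by DESeq2 (0.104%).

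In myocyte-like nuclei the genes of the tumor-like class had higher means in the Minnelide group, and DESeq2 made its call of Pde4b there. The direction was not particular to this class. Log2 fold changes of Pde4b and Pde10a were 0.64 and 0.85 in endothelial-like and 0.71 and 0.54 in macrophage-like nuclei. They were 0.50 and 0.39 in fibroblast-like and 0.45 and 0.41 in smooth muscle-like nuclei, and none passed edgeR. In myocyte-like nuclei Pde4b had 848, 1280.3, 1227 and 1449 CPM in untreated tumors 1 to 4. It had 2505, 2376, 2436 and 2144 CPM in Minnelide tumors 1 to 4. The groups did not overlap. That held for 2 of the 10 genes, Pde4b and Pde10a, and for 8.75% of all genes at 20 CPM in this class. The log2 fold change of Pde4b was 0.92 ± 0.27 (SE; edgeR adjusted p = 0.320; 0 of 10174 genes called, 0%). DESeq2 gave an adjusted p of 0.0368, among 112 genes called (1.10%), and over 15 alternatives the adjusted p was between 0.0368 and 0.629, with the direction the same in each. Pde10a had 580.2 to 2827 CPM in untreated and 4899 to 8172 CPM in Minnelide tumors, a log2 fold change of 1.47 ± 0.50, and Pde1c one of 0.79 ± 0.30 (SE; edgeR adjusted p = 0.355 and 0.396). These 3 genes, and 11% of all genes, had an unadjusted edgeR p under 0.05 in this class. Without untreated tumor 1 the log2 fold changes were 0.73 for Pde4b, 1.11 for Pde10a and 0.65 for Pde1c.

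Tumor markers moved with these genes in the same nuclei. In myocyte-like nuclei the list of 12 tumor markers took 0.492% to 0.590% of UMIs in untreated and 0.860% to 1.28% in Minnelide tumors. All 12 had a higher mean in the Minnelide group, 8 of them without overlap, and none was at 0 in any tumor. The myocyte marker list took 4.92% to 7.96% of UMIs in untreated and 3.03% to 4.00% in Minnelide tumors. These ranges did not overlap. All 12 tumor markers also had higher means in fibroblast-like, endothelial-like and macrophage-like nuclei of the Minnelide group, and 11 in smooth muscle-like nuclei. Tumor markers were also raised in a myocyte-like cluster of 821 nuclei, of which Minnelide tumor 2 gave 816. Without Minnelide tumor 2 the log2 fold change of Pde4b was 0.89, and without the mixed cluster of untreated tumor 1 it was 0.97. The part of tumor RNA, or of the lower myocyte marker share, in the difference was not tested.

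Osteoclast-like nuclei had the same order of values. Pde4b had 325 to 1004 CPM in untreated and 945 to 2842 CPM in Minnelide tumors, a log2 fold change of 1.43 ± 0.42 (SE; edgeR adjusted p = 0.270; 0 of 6126 genes called, 0%). By DESeq2 the adjusted p was 0.0690. Pde10a differed by 1.29 ± 0.58 and Pde1c by 0.91 ± 0.43 (SE; edgeR adjusted p = 0.345 and 0.349). No phosphodiesterase gene of the 10 had groups without overlap, against 7.58% of genes at 20 CPM in this class, and without untreated tumor 1 the log2 fold change of Pde4b was 1.15. Of the 8 phosphodiesterase genes tested there 1 had an unadjusted edgeR p under 0.05, against 14.6% of all genes, and DESeq2 called 37 genes (0.604%). The tumor marker list took 0.216% to 0.671% of UMIs in untreated and 0.533% to 1.42% in Minnelide tumors, with 12 of 12 means higher and 1 marker without overlap. The osteoclast marker list took 0.868% to 1.66% in untreated and 0.501% to 0.935% in Minnelide tumors. The part of either list in the difference was not tested. In a whole tumor, fewer cells of a type and less RNA per cell cannot be told apart, and in all nuclei together edgeR called 0 of the 10 genes and 0 of 13809 (0%), with 1 of the 10 and 9.96% of all genes at an unadjusted p under 0.05, and DESeq2 173 genes (1.25%).

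In endothelial-like nuclei 0 of 9 tested phosphodiesterase genes and 0 of 9538 genes passed edgeR (0%), and 0 of the 9 and 9.83% of all genes had an unadjusted p under 0.05. By DESeq2 28 genes were called (0.294%). The groups overlapped for all 10 genes there and in all nuclei together, against 7.29% and 6.87% of genes at 20 CPM without overlap.

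The groups did not overlap for some of the other family genes that were tested, none of which edgeR or DESeq2 called. In the classes named here 3.70% to 7.58% of all genes at 20 CPM had groups without overlap, and nothing is read from these cases. Pde2a had 154 ± 48.0 CPM in endothelial-like nuclei of untreated tumors and 76.8 ± 17.6 CPM in those of Minnelide tumors (SD, n = 4 each), a log2 fold change of -0.96 ± 0.23 (SE; edgeR adjusted p = 0.460, DESeq2 adjusted p = 0.0633) and of -0.78 without untreated tumor 1. Its groups were also apart in all nuclei and in tumor-like nuclei, where the log2 fold change of -2.33 ± 0.74 (SE; edgeR adjusted p = 0.502) became -1.01 without untreated tumor 1. Osteoclast-like nuclei had Pde7a, the gene of a cAMP-specific enzyme, at 72.3 to 107 CPM in untreated and 143 to 239.9 CPM in Minnelide tumors. They had Pde8a, of the same family as Pde8b, at 322 to 491 CPM in untreated and 172 to 295 CPM in Minnelide tumors. The log2 fold changes of 0.99 ± 0.23 and -0.78 ± 0.23 thus ran in opposite directions (SE; edgeR adjusted p = 0.270 for both). Groups without overlap were seen as well for Pde7a in endothelial-like nuclei and Pde1b in all and in macrophage-like nuclei, with edgeR adjusted p values of 0.530, 0.467 and 0.735. Pde1b averaged only 2.15 CPM over all nuclei, below the level at which that share was taken.

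Over the 8 fits the 4 pathway lists held 0 genes that passed, at edgeR adjusted p values of at least 0.272. In tumor-like nuclei the median log2 fold change was -0.08 for 15 cyclase genes, -0.00 for 13 effector genes, -0.11 for 14 anchor and inhibitor genes and -0.02 for 6 transcription factor and coactivator genes, against 0.10 for the 10 phosphodiesterase genes and -0.00 for all genes tested.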

How the data were processed

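The authors ran Cell Ranger on mm39, intronic reads included, and deposited unnormalized UMI counts. The submitters' processing notes name version 7.0.1, with bcl2fastq 2.20, and the file headers a later version. The 4 matrices of each GEO sample were taken as its 4 tumors, since the series text gives 4 tumors a group. Their numbers follow file order and pair nothing. The labels do not say that tumors came from separate mice, so p values measure the spread between these samples. The annotation counted is not given in the sources used here. Words on response in the file names were not used, because the labels lack them.

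Nuclei were filtered by a mixture of regressions of mitochondrial percent on detected genes (posterior 0.75) and a minimum of 200 genes. Doublets were removed with Scrublet (0.8% per 1000 nuclei). Clustering in scanpy 1.11.5 used 2000 variable genes, 30 components, 40 neighbors and Leiden resolution 1.0, without integration. Markers, the phosphodiesterase family and the pathway lists were kept out of the variable genes. Clusters were named by markers raised 1.5-fold within each tumor. No pericyte-like class resulted, so its planned fit was not made, and fits for smooth muscle-like and osteoclast-like nuclei were added after the clusters were seen.

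Counts were summed per tumor and class and tested with edgeR 4.0.16 (TMM, filterByExpr, quasi-likelihood, Benjamini-Hochberg), checked on simulated data, in which modest changes were mostly not called, with DESeq2 1.42.0 as an alternative. The SE is the log2 fold change over the root of its F value. The text names the 10 genes, the other family genes, the 3 genes most alike to each, and of each pathway list any gene called and the 2 with the largest step between classes. A gene among those most alike and a sequence search are not reported here. Genes that meet the marking rule were named as well, after their values were seen. Members and lists were chosen with earlier results of these data known. Genes sharing sequence with paralogs are uncertain. Overlapping genes touch Pde1b and Pde7a only. Other settings tried were RLE normalization, no count filter, no doublet removal, no filter on compromised nuclei, stricter naming, resolution 0.5, summed UMIs, leaving out each tumor, and leaving out the mixed cluster, the last chosen after seeing the data.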

Additional observations from a re-analysis of the deposited data

Results flagged for a closer look

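Single tumors stood apart from the other 3 of their group in 7 of 50 groups examined by Dixon's rule at the 95% level, of which chance marks about 1 in 20. The groups are not independent, since values over all nuclei include the tumor-like nuclei, so the count is not weighed against that rate. Untreated tumor 1 had Pde10a in its tumor-like nuclei at 3803 CPM against 13197 to 14169 CPM in the other untreated tumors. In the same nuclei Pde4d was at 563 CPM against 1805 to 1944 CPM, and Pde3b at 93.9 CPM against 16.9 to 29.0 CPM. In tumor-like nuclei of Minnelide tumor 2, Pde3b was at 34.2 CPM against 8.68 to 12.7 CPM and Pde8b at 9.44 CPM against 0.552 to 1.79 CPM. Over all nuclei of Minnelide tumor 2, Pde8b was at 14.5 CPM against 1.55 to 2.29 CPM. Over all nuclei of Minnelide tumor 3, Pde1c was at 1060.5 CPM against 493 to 568 CPM.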

How the results depend on the processing

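The count of phosphodiesterase genes called stayed at 0 in each of the 8 fits under the settings that could be run, except that DESeq2 called 1 in myocyte-like nuclei, Pde4b, with a log2 fold change of 0.91. With each tumor left out in turn the count was 0 in every fit. The number of genes marking a class was 7, and between 5 and 8 with each tumor left out. It was 6 without doublet removal, without the filter on compromised nuclei and at resolution 0.5. Under stricter naming it was 3, but this leaves no smooth muscle-like, fibroblast-like, macrophage-like or osteoclast-like class by construction. The 1 tumor-like cluster left there had 5854 nuclei, 5720 of them from Minnelide tumor 1, so that setting says little on tumor-like nuclei. The log2 step of fibroblast-like nuclei over the highest other class for Pde7b ran from -0.19 to 0.22 with each tumor left out. The steps of the other 9 genes kept their sign in every setting that gave a value, and moved by less than 1 SD of the tumors. Log2 fold changes turned sign with a tumor left out for Pde1a (-0.13 to 0.54), Pde3a (-0.44 to 0.05), Pde4d (-0.20 to 0.24) and Pde8b (-1.11 to 0.49) in tumor-like nuclei. They did so as well for Pde3a (-0.05 to 0.29) and Pde8b (-2.24 to 0.93) in smooth muscle-like, Pde3b (-0.35 to 0.71) in macrophage-like and Pde4d (-0.48 to 0.17) in myocyte-like nuclei. Without the filter on compromised nuclei Pde4d in tumor-like nuclei was at -0.00. The causes were not tested. No paired analysis was possible because the labels carry no tumor numbers. Depth limits values that rest on few UMIs, above all Pde8b.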
